A study of Mus musculus with 3 samples.

Results

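The Pax6 locus was examined in chromatin immunoprecipitation sequencing (ChIP-seq) peak lists for Ring1B and Zrf1 in mouse neural progenitor cells. Members were all deposited intervals of either list that overlapped chromosome 2 from 105.4 to 105.62 Mb (genome build mm9), a window of 220 kb that holds Pax6 and its flanks. There were 10 such intervals among the 23437 of both lists together. All 10 came from the Ring1B list of 11790 peaks, and none came from the Zrf1 list of 11647 peaks. The rule for the window used position and not the number, width or arrangement of the peaks inside it. Pax6 itself was chosen as a key regulator of neural progenitors, with earlier results of these data known, so the choice of locus was not blind.

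The neural progenitors had been derived in culture from the embryonic stem cell line E14TG2a and were maintained in N2 medium with EGF and FGF2. The series had 3 libraries, 1 each with an antibody to Ring1B, an antibody to Zrf1 and rabbit IgG as the control. No genetic change or drug treatment was named for any of them, and the IgG library was not analysed here. With 1 library per antibody there was no replicate, so no value below carries an error between samples and no test between the antibodies was possible. The read depth of the libraries was unknown from the lists, so a missing peak shows only that none was listed. The identity of the cells could not be checked, because expression was not part of these data.

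Pax6 encodes a transcription factor with a paired domain and a homeodomain that is required for the development of the eye, the forebrain and other parts of the nervous system, and it is a standard marker of neural progenitors. Ring1B, encoded by Rnf2, is the E3 ligase subunit of Polycomb repressive complex 1, which places ubiquitin on histone H2A and tends to occupy CpG-rich promoters of developmental regulators. Zrf1, encoded by Dnajc2, recognises ubiquitylated H2A and is known to displace Polycomb repressive complex 1 from chromatin during differentiation. The design set the DNA binding of Zrf1 beside that of Ring1B in these progenitors.

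The RefSeq promoter records used here may not hold every start site of Pax6. They gave 2, on the plus strand of chromosome 2 and 13.6 kb apart in the build GRCm38.p6. The 250 bases before each are shown because promoters rich in CpG are the typical sites of Polycomb complexes, and capitals mark each CG dinucleotide, the motif searched (CG reads the same on both strands, and its matches cannot overlap). The first is at chr2:105668646-105668895 and the second at chr2:105682213-105682462, both in GRCm38.p6. These positions cannot be set beside the mm9 positions of the peaks, and which peak covers which promoter was not determined here.
Pax6 promoter 1: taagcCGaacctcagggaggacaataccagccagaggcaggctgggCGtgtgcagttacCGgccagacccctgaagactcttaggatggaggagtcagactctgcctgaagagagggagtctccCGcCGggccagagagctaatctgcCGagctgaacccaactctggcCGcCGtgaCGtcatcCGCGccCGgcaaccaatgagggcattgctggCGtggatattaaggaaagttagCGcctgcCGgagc
Pax6 promoter 2: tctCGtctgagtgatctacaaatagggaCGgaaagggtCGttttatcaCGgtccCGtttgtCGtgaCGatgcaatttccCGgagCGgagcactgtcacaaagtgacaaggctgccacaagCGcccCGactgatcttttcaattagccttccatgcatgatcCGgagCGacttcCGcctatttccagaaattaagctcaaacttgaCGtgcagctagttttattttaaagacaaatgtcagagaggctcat

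Each of the Pax6 promoters shown held 15 CG dinucleotides in its 250 bases. Of the 32851 promoter records of RefSeq cut to the same length, 27.3% had at least that many and 92.1% had at least 1, and the median was 6. The promoters differed in base composition. Promoter 1 was 60.8% G or C, with 0.652 of the CG number expected from its C and G content, while promoter 2 was 47.6% G or C, with a ratio of 1.06. Ordered by lowest position, the genes of the same assembly include the long noncoding RNAs Pax6os1 and Paupar before Pax6, and Elp4, which encodes a subunit of the Elongator complex, directly after it. The start site of Pax6os1 (105670330, minus strand) nevertheless lay between the 2 start sites of Pax6 (105668896 and 105682463). The Elp4 promoter held 17 CG dinucleotides and that of Pax6os1 held 10. The Elp4 start site was at 105904564 on the minus strand, well beyond those of Pax6. Whether it falls in the mm9 window was not determined. No coordinates of these neighbours were transferred to mm9, so each peak is described by position and not as promoter, exon or intron.

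Ring1B covered the Pax6 locus with a compact group of peaks and left most of the window empty. Of the 10 peaks, 9 formed a single cluster, in which no gap between neighbours exceeded 5 kb, from 105500088 to 105529997. In the whole Ring1B list, 0.984% of peaks lay in clusters of 9 or more peaks. The Pax6 cluster spanned 29.9 kb, which is 13.6% of the window, and held 95.0% of its Ring1B-covered sequence. The remaining member was a lone peak 46.9 kb before the cluster. No Ring1B peak was listed in the last 90.0 kb of the window.

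**Figure D1:**
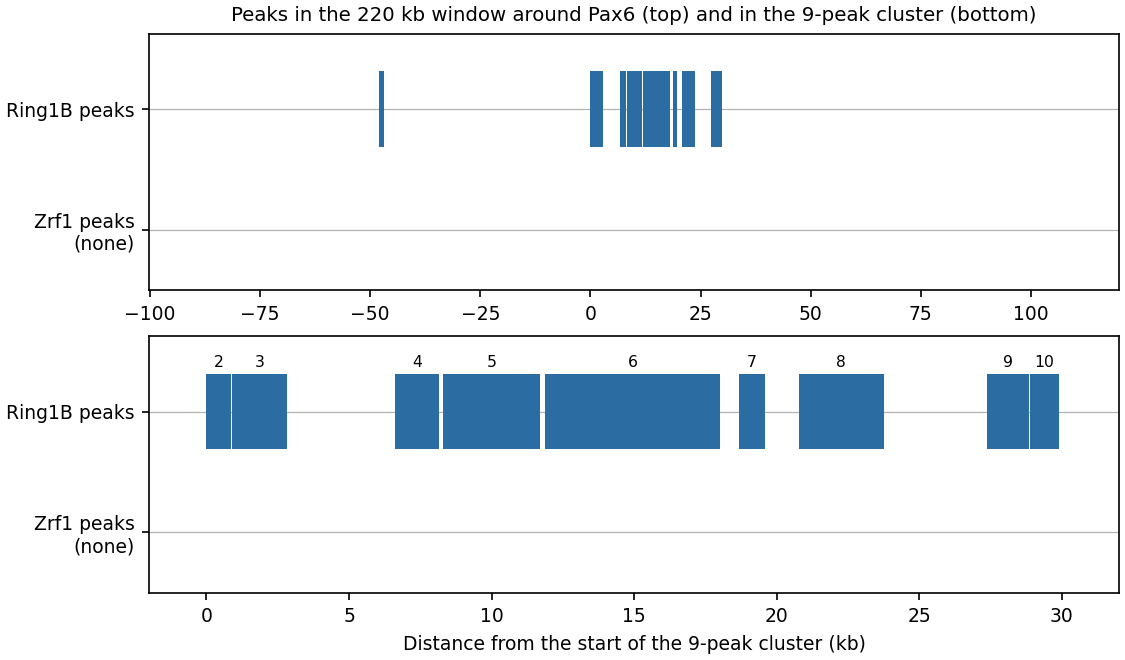
Positions of Ring1B and Zrf1 peaks in the 220 kb Pax6 window (top) and enlarged over the 9-peak cluster (bottom); the x axes give the distance in kb from the start of the cluster, blocks are deposited peaks drawn to scale, and numbers are peak numbers in order of position. The Ring1B peaks occupy 29.9 kb and a lone site 46.9 kb before it, and the Zrf1 rows are empty.

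The lone peak, peak 1 in order of position, ran from 105452107 to 105453177 and was 1070 bp wide. The cluster opened with peak 2 (105500088 to 105500952, 864 bp), the narrowest member. Peak 3 (105500969 to 105502930, 1961 bp) followed after a gap of only 17 bp. Peaks 2 and 3 thus formed the upstream edge of the cluster, separated by 3783 bp, the longest gap in it, from what came next.

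The centre of the cluster was almost continuously covered. Peak 4 (105506713 to 105508254) was 1541 bp wide. Peak 5 (105508393 to 105511782) was 3389 bp wide and began 139 bp after it. Peak 6 (105511974 to 105518102), the widest member at 6128 bp, began 192 bp after peak 5. These 3 peaks covered 97.1% of a stretch of 11389 bp.

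Beyond peak 6 the coverage was more broken. Peak 7 (105518756 to 105519666) was 910 bp wide and lay 654 bp beyond peak 6. Peak 8 (105520863 to 105523840) was 2977 bp wide and lay 1197 bp further. After another 3637 bp came the pair of peak 9 (105527477 to 105528941, 1464 bp) and peak 10 (105528974 to 105529997, 1023 bp), which were 33 bp apart. The cluster therefore consisted of a broad centre, the separate peaks 7 and 8 on one side of it, and a pair of nearly touching peaks at each edge.

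Of the 8 gaps inside the cluster, 4 were at most 200 bp. Over all gaps between neighbouring Ring1B peaks on the autosomes the share was 4.35%. Gaps inside a cluster are at most 5 kb by definition, so these shares are not alike. Whether short gaps were in excess at Pax6 cannot be read from them. The number of peaks at Pax6 depends on whether neighbours at most 200 bp apart are counted apart. With peaks at most 200 bp apart joined in the whole list, a distance chosen after the peaks were seen, the 10 members became 6. Peaks 4 to 6 then formed 1 interval of 11389 bp, which ranked 17 by width among 11281 joined Ring1B intervals.

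The members were 864 to 6128 bp wide, within a Ring1B list that ran from 360 to 23645 bp. Their median was 1502 bp (quartiles 1035 and 2723 bp), beside 1324 bp (quartiles 987 and 1764 bp) for all Ring1B peaks. At or above the list median were 6 of the 10, against 50% of the list, and above its upper quartile were 4 of 10, against 25%, both shares of the list by definition. Peak 6 ranked 73 of 11790, so 0.619% of the list was at least as wide, and it was the 1 member over 5000 bp (0.992% of the list). Peaks 5 and 8 followed, with 3.05% and 4.67% of the list at least as wide. These 3 peaks supplied 61.7% of the covered sequence of the cluster. At the other end, peaks 2 and 7 lay below the lower quartile, with 85.6% and 82.0% of the list at least as wide. Wide and narrow peaks thus lay side by side within the same 29.9 kb. Width depends on the calling settings and is not a measure of peak strength, and the lists held no score.

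**Figure D2:**
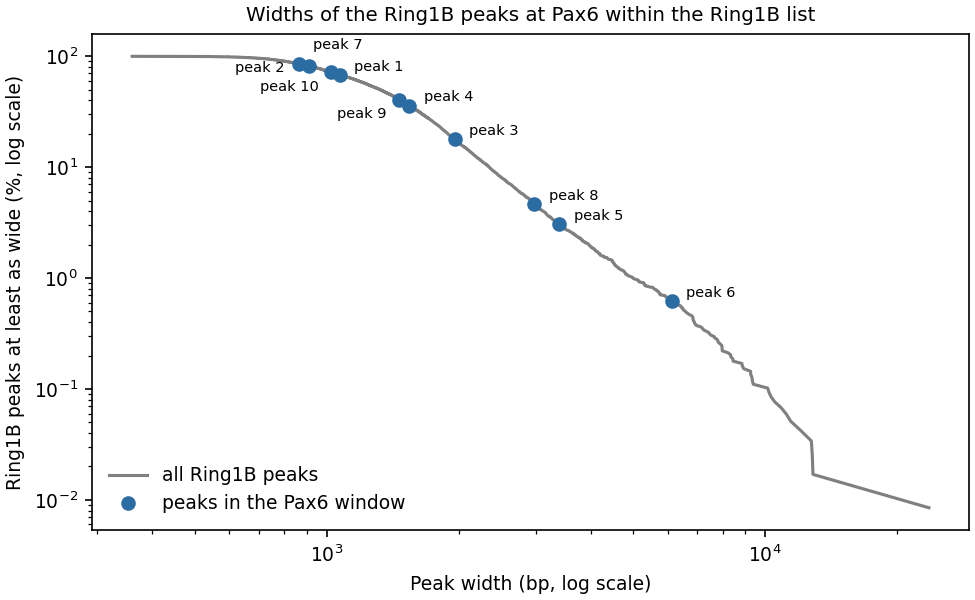
Width of each Ring1B peak of the Pax6 window (x axis, bp, log scale) against the percent of all 11790 Ring1B peaks that were at least as wide (y axis, log scale); the line is the whole list and points are the 10 members. Peaks 5, 6 and 8 lie in the widest 5% of the list, while the other 7 run from 864 to 1961 bp.

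Per base, Ring1B coverage at Pax6 was 11.3-fold that of chromosome 2. Ring1B peaks covered 21.3 kb, or 9.69% of the window, beside 0.859% of chromosome 2 and 0.719% of all autosomes. In number the window held 45.5 Ring1B peaks per Mb, against 5.32 per Mb on chromosome 2, where 1.17 peaks would fall into 220 kb at the mean density. The coverage fold rests on where the window ends, since 9 of the 10 peaks lie near its middle and peak 1 still lies inside the narrowed window: it was 20.7 with 50 kb less on each side and 5.91 with 100 kb more on each side. The covered sequence itself, and the number of peaks, stayed the same in both. Within the cluster, 67.7% of the sequence was covered.

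The Pax6 cluster was among the larger Ring1B clusters of the genome. Clusters of 5 or more peaks numbered 61 of 10054 and held 3.66% of Ring1B peaks. Among these 61, the Pax6 cluster ranked 10 by covered sequence (20.3 kb, median of the 61 12.3 kb) and 7 by span (29.9 kb, median 18.4 kb), and 6 clusters had more peaks. Its density was ordinary for such a cluster, with rank 36 by the percent of its span that was covered (67.7%, median 70.2%). Its widest peak ranked 13 among the widest peaks of the 61. The Pax6 cluster was thus large in extent, with a usual ratio of covered to open sequence.

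**Figure D3:**
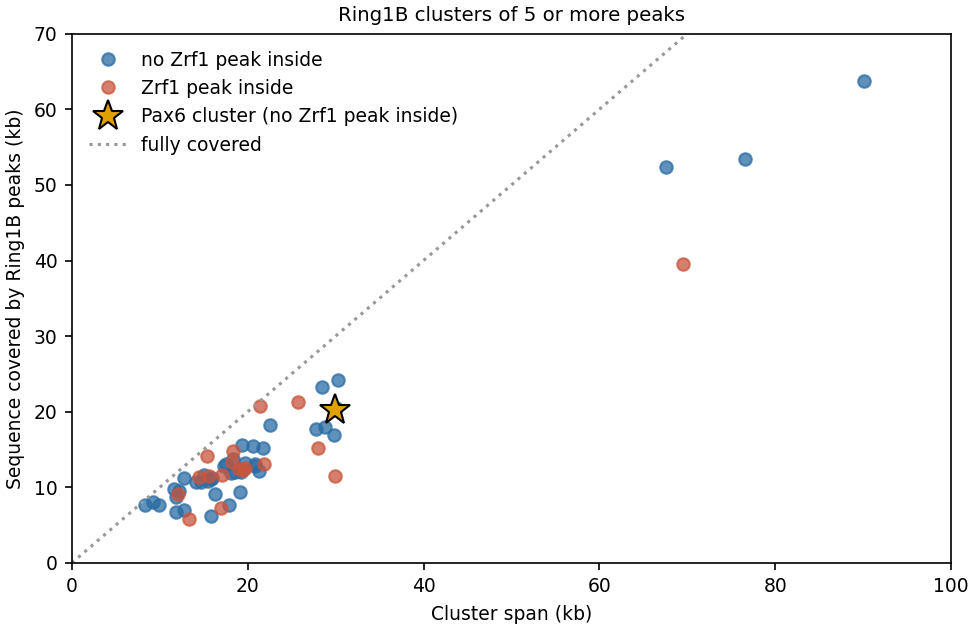
Span (x axis, kb) and Ring1B-covered sequence (y axis, kb) of the 61 Ring1B clusters of 5 or more peaks; colours show whether a Zrf1 peak overlapped the span, the star is the Pax6 cluster and the dotted line marks full coverage. The Pax6 cluster (29.9 kb, 20.3 kb covered) lies near the upper end of the main group, with rank 10 by covered sequence and 7 by span. Apart from the main group lie 4 clusters that each span over 60 kb.

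No Zrf1 peak was listed anywhere in the Pax6 window, so none of the 10 Ring1B peaks was shared with Zrf1. In the whole Ring1B list 16.6% of peaks overlapped a Zrf1 peak by at least 1 bp, and in clusters of 5 or more peaks 6.94% did. A count of 0 of 10 allows a share of up to 30.0% (3 counts of 10, counting error only), and the peaks of 1 locus are not independent, so it does not separate Pax6 from the list. Within 5 kb of a Zrf1 peak lay 24.6% of all Ring1B peaks and again none of the members. The absence of Zrf1 peaks from the window was also common by itself: 1.09 Zrf1 peaks would fall into it at the mean density of chromosome 2, and 54.9% of 11226 autosomal windows of the same length had none.

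The nearest Zrf1 peaks lay far outside the locus. The last before it ran from 105060297 to 105061013 (716 bp wide), which is 391 kb from peak 1 and 439 kb from the cluster. The first after it ran from 106266187 to 106266883 (696 bp wide), 736 kb beyond peak 10. Distances from the members to the nearest Zrf1 peak therefore ran from 391 to 468 kb, while the median over all Ring1B peaks was 28.7 kb. A distance of at least that of peak 1 was found for 4.78% of Ring1B peaks. Since all 10 members lie in the same gap of the Zrf1 list, their distances are 1 observation and not 10.

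That gap, a stretch of 1.21 Mb without a Zrf1 peak, was long for the Zrf1 list. On the autosomes 345 of 11555 gaps between neighbouring Zrf1 peaks (2.99%) were at least as long, and on chromosome 2 28 of 903 were. The median autosomal gap was 67.7 kb. The stretch contained 10 Ring1B peaks, the members of the Pax6 window and no others. At least 10 Ring1B peaks were found in 0.286% of the autosomal Zrf1-free stretches (33 of 11555), whose median was 0 and whose highest count was 37. Longer stretches hold more peaks by their length alone. At the mean Ring1B density of chromosome 2 a stretch of this length would hold 6.41 peaks, so the 10 peaks (8.3 per Mb, against 5.32) were 1.56-fold that number.

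Long gaps also separated the Pax6 peaks from other Ring1B peaks. The nearest Ring1B peak before the window ended at 104974055, 478 kb from peak 1 and 426 kb outside the window. That peak was itself part of a Ring1B cluster of 6 peaks, which is among the 61 clusters of 5 or more. The nearest after it began at 106534383, 1004 kb beyond peak 10. Of the autosomal gaps between neighbouring Ring1B peaks, 9.63% were at least as long as the first and 4.31% as long as the second (median gap 59.9 kb). Neither protein thus had a listed peak within 391 kb on either side of the Pax6 peaks. Whether the lack of Ring1B peaks in these flanks and the absence of Zrf1 belong together was not tested.

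Most of the other large Ring1B clusters had a Zrf1 peak closer by. Of the 61 clusters, 43 (70.5%) had no Zrf1 peak inside, as at Pax6, and 18 did. By the distance from the cluster to the nearest Zrf1 peak, 439 kb, the Pax6 cluster ranked 5 of 61, with a median of 28.7 kb and a range of 0 to 803 kb.

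Among windows of 220 kb rich in Ring1B, those without a Zrf1 peak were a minority. At least 10 Ring1B peaks were present in 63 of 11226 autosomal windows (0.561%), the Pax6 window included. The other 62 held between 0 and 12 Zrf1 peaks with a median of 4, and 8 of them had none, as at Pax6. Of all 11226 windows 54.9% had no Zrf1 peak, among them 4817 windows without a peak of either protein. By Ring1B-covered sequence, 29 other windows equalled or exceeded the Pax6 window, and 4 of these had no Zrf1 peak. The placing of the windows kept the Pax6 cluster whole but cut some others, which favours Pax6 in these counts. For example, the cluster on chromosome 6 from 52135677 to 52225817 was cut at 52160000. The 5 with the most were on chromosome 2 from 74380000 to 74600000 (74.5 kb covered, 0 Zrf1 peaks), chromosome 6 from 52160000 to 52380000 (64.2 kb, 0 Zrf1 peaks), chromosome 15 from 102760000 to 102980000 (58.1 kb, 2 Zrf1 peaks), chromosome 11 from 95940000 to 96160000 (57.6 kb, 2 Zrf1 peaks) and chromosome 6 from 47540000 to 47760000 (54.8 kb, 8 Zrf1 peaks). A window rich in Ring1B without Zrf1 was therefore not limited to Pax6.

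**Figure D4:**
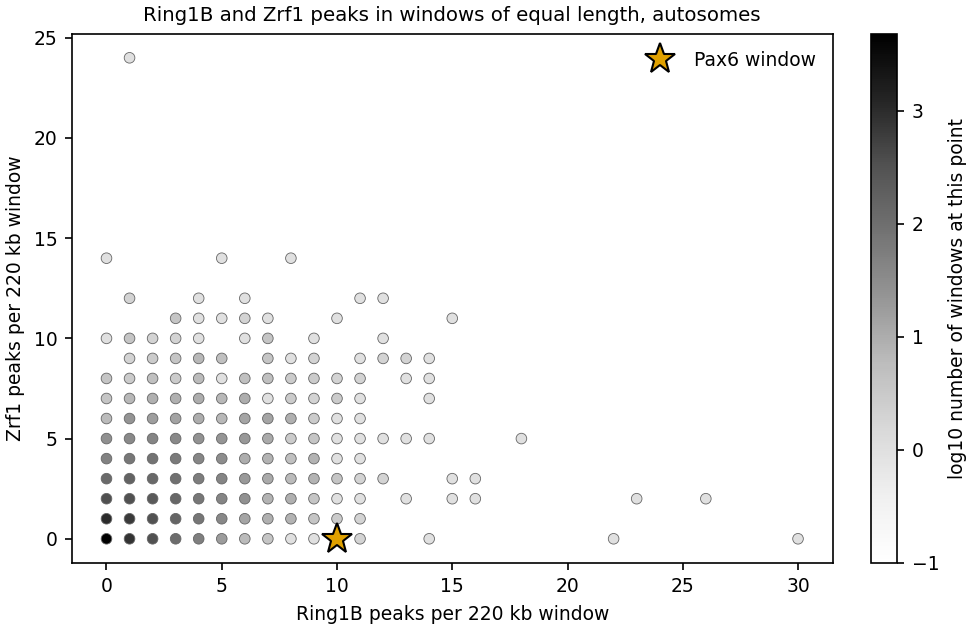
Number of Ring1B peaks (x axis) and Zrf1 peaks (y axis) in 11226 autosomal windows of 220 kb; grey shade gives the log10 number of windows at each point and the star is the Pax6 window. The Pax6 window has 10 Ring1B peaks and 0 Zrf1 peaks, while the other 62 windows with at least 10 Ring1B peaks have 0 to 12 Zrf1 peaks.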

How the data were processed

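Each list was deposited as 3 columns without a header (chromosome, start, end), with no score, summit, p-value or gene name, and the antibody that names the list occurs in the labels of 1 library, to which it was matched. Per the submitters' processing notes, Bowtie 0.12.7 and MACS 1.4.2 were used with mm9. At what threshold MACS was run, against which control and with what filtering afterwards is not given in the sources used here. Whether starts count from 0 or 1 is not given.

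From these intervals, width (end minus start), overlap (at least 1 bp), gaps, clusters (gaps of at most 5 kb) and covered sequence were computed with Python 3.11.15 and NumPy 2.4.6, with figures from matplotlib 3.10.9. The autosomes were tiled into consecutive windows of 220 kb, placed so that the Pax6 window was one of them. Chromosome lengths of mm9 came from GenomeInfoDb 1.38.1. The code recovered 500 of 500 planted overlaps in simulated lists of 5000 and 1000 peaks, and bedtools 2.31.1 gave the same 1956 Ring1B peaks on Zrf1. All peaks of the window are given, and outside it the nearest peak of each list on either side and at most 5 windows by covered sequence. Gene names and promoter sequences came from RefSeq (GRCm38.p6), and no coordinates were converted. The members, lists and measures were chosen with earlier results of these data known. No hypothesis test was run, because each antibody had 1 library.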

Additional observations from a re-analysis of the deposited data

How the results depend on the processing

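The window held 10 Ring1B and 0 Zrf1 peaks when narrowed by 50 kb or widened by 100 kb on each side, and when only intervals wholly inside it were kept. With peaks of at least the median width of their list, 6 Ring1B peaks were left. Joining peaks at gaps of at most 200 bp, an alternative chosen after seeing the data, also left 6, in a cluster of 5, with a median width of 2681 bp; fewer and wider intervals follow from the joining. The largest cluster had 5 peaks with gaps up to 2 kb, because the edge pairs separated from it, and 9 with gaps up to 10 kb. Ring1B coverage relative to chromosome 2 was 20.7-fold in the narrowed and 5.91-fold in the widened window, by construction, and 13.7-fold relative to the other autosomes. The number of members on Zrf1 was 0 under all 9 alternatives run (both window sizes, 50% coverage, reciprocal 50%, within 1 kb, within 5 kb, central 200 bp, wider peaks and joined peaks). With the nearest Zrf1 peak 391 kb away, none of them could give another value, so this says nothing about stability. Windows with as much Ring1B coverage made up 0.267%, and 0.223% with the window grid shifted by 110 kb. The shift put a window edge inside the Pax6 cluster, and the threshold stayed the coverage of the unshifted Pax6 window. The second share is therefore no check of the place of Pax6 among the windows. No paired analysis was possible because each antibody had 1 library. Depth is unknown, so the lack of a Zrf1 peak does not show a lack of binding.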
